A study of Mus musculus with 3 samples.

Results

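Matrix metalloproteinases (Mmp genes), ADAMTS proteases (Adamts genes) and tissue inhibitors of metalloproteinases (Timp genes) were examined in RNAseq of the mouse incisor enamel organ. Members were all rows of the deposited count table whose symbol is Mmp, Adamts or Timp followed by a number, with Mmp20 left out. This gave 40 of 20937 listed genes, namely 17 Mmp, 19 Adamts and 4 Timp genes. The study deleted Stim1, a calcium sensor of the endoplasmic reticulum, with AmelX-iCre, a Cre recombinase driven by the amelogenin promoter, to learn how its loss alters enamel formation. Enamel organ cells of the whole incisor were taken at 4 weeks of age and sequenced as 3 libraries, 1 per genotype. Stim1 cKO was Stim1 fl/fl with Cre, Stim1 HT was Stim1 fl/wt with Cre, and Stim1 Ctrl was Stim1 fl/fl without Cre, so the controls differ from each other in both Cre and floxed alleles. The driver aims the deletion at ameloblasts, and the labels do not say whether mice were pooled. The libraries held 21496136, 20216507 and 28265960 counts in this order. No genotype had a replicate, so no difference below has a replicate check. Every listed gene had at least 1 count in each library. Mmp1a, Mmp1b, Mmp7, Mmp10 and Mmp21 are not listed and were not analysed here, and whether they lacked reads is not known.

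MMPs are zinc-dependent enzymes that cleave collagens, gelatin, elastin and other matrix proteins, and they are made as inactive proenzymes. ADAMTS proteases are secreted relatives with thrombospondin repeats that cut proteoglycans or trim procollagens, and TIMPs bind and block the active site of MMPs and, in the case of Timp3, of some ADAMTS proteases. Enamel itself depends on Mmp20, an ameloblast enzyme that is not among the members, while most of the members are known from connective tissue, bone, blood vessels and immune cells. Levels are given as CPM, read counts relative to library size after TMM scaling, and as CPM per kilobase of exon where genes are compared with each other.

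The labels name the tissue as enamel organ and the cells as ameloblasts. All 8 ameloblast markers were listed, and their summed level was 4480 CPM in Stim1 cKO, beside 31534 CPM for Stim1 HT and 23265 CPM for Stim1 Ctrl. Amelx was the largest part of this sum in each library, a rank by CPM and not per length, as for all marker lists, and without it the sums were 2416, 11525 and 9182 CPM. The sum was lowest in Stim1 cKO, but the markers were divided, with 4 below both controls, 3 above both and 1 between them. Amelx, Ambn and Enam were over 2-fold below both controls and Odam and Odaph over 2-fold above both, and DESeq2 called these 5 in those directions, while edgeR called 0 of the 8, with 3 lower and 2 higher at an unadjusted p under 0.05. Odam, a protein of maturing ameloblasts, was at 693 CPM in Stim1 cKO, beside 196 CPM for Stim1 HT and 75.1 CPM for Stim1 Ctrl. All 6 general epithelial markers were listed too, with sums of 3003, 1833 and 1663 CPM in the same order and Krt5 as the largest part in each library. All 6 were highest in Stim1 cKO. Markers of cells that the labels do not name were listed as well, and sums were 870, 236 and 199 CPM for 7 neuron markers in this order of libraries. The account of such cells is not complete, since the result of 1 marker list is not reported here. For 6 of 7 gland markers, with Lacrt not listed, sums were 2486, 259 and 30.4 CPM, and without Muc5b they were 89.8, 23.7 and 21.2 CPM. Both sums were highest in Stim1 cKO. Of 7 neuron markers, 5 were over 2-fold above both controls, against 19.1% of all tested genes, and Scgb2b24 of the gland markers was below both. The part of neurons and glands in the results on proteases was not tested. Stim1 cKO is the only library of its genotype, so no comparison can be made without it.

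Stim1 itself was lowest in Stim1 cKO, at 72.8 CPM beside 129 and 186 CPM for Stim1 HT and Stim1 Ctrl. With an adjusted p of 0.106 in edgeR, Stim1 was not called.

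Of the 40 members, 38 passed the filter on low counts and were tested among 18702 genes. Mmp27, with 3, 1 and 2 counts in Stim1 cKO, Stim1 HT and Stim1 Ctrl, was not tested. Adamts13, with 5, 6 and 1 counts, was not tested either. Mmp12 had the same 6 and 1 counts in the controls and passed only through its 66 counts in Stim1 cKO. It is among the members counted as higher in what follows. The test set Stim1 cKO against the grouped controls in edgeR, and calls needed an adjusted p under 0.01 together with a fold change over 2. edgeR called 0 of 38 members, where it called 0.0749% of all tested genes. At an unadjusted p under 0.05, edgeR gave 14 members lower in Stim1 cKO, against 13.4% of all tested genes, and 2 members higher, against 18.5% of all tested genes. DESeq2 called 6 members lower, namely Mmp2, Mmp9, Timp1, Adamts7, Adamts8 and Adamts12, against 5.1% of the genes it gave an adjusted p. It called 0 members higher, against 6.42% of those genes.

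The median log2 fold change of the tested members was -0.55, against -0.01 over all tested genes. It was -0.46 for Mmp, -0.90 for Adamts and -0.13 for Timp genes. The sign of the Timp median was not stable, since it was 0.13 with scaling by library size only, near 0 with upper quartile scaling and 0.15 without Stim1 Ctrl. By size alone, with no test, 11 of 38 members were over 2-fold below both controls, which is 28.9% against 8.16% of all tested genes. This count was 18 without Stim1 HT and 7 with scaling by library size only. Over 2-fold above both controls were 3 members, which is 7.89% against 19.1% of all tested genes. Without Stim1 Ctrl this count was 5, with Mmp3 and Timp4 added. In 23 members Stim1 cKO was below both controls by any amount, against 42.1% of all tested genes. In 20 members the level went from Stim1 cKO over Stim1 HT up to Stim1 Ctrl, an order that 25.4% of all tested genes had. The members were also lower in Stim1 HT than in Stim1 Ctrl, by a median of -0.46 in log2. A shift of similar size was thus found between the controls, without Stim1 cKO. In bulk tissue, fewer cells of a type and less RNA per cell cannot be told apart.

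**Figure D1:**
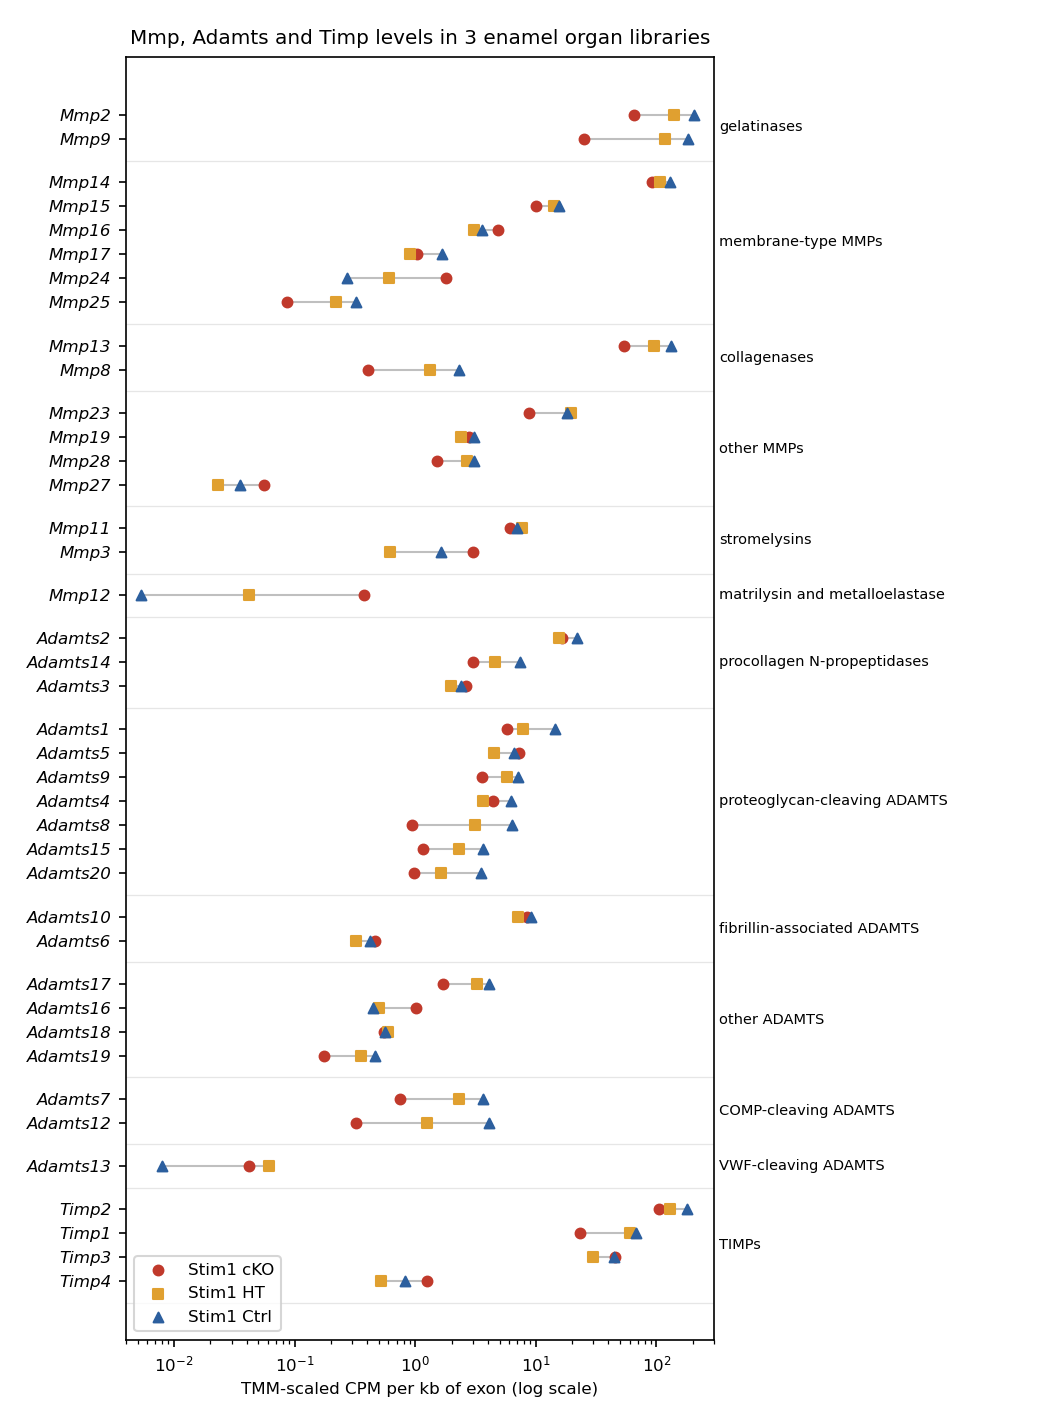
Level of each of the 40 members in CPM per kilobase of exon, on a log axis, with 1 point per library and members grouped by family. Mmp2, Mmp9, Mmp13, Mmp14 and Timp2 lie at the high end, and Mmp12, Mmp27 and Adamts13 rest on 3 or fewer counts in at least 1 library.

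Gelatinases digest denatured collagen and type IV collagen of basement membranes. Mmp2, a gelatinase of mesenchymal cells, was at 221 CPM in Stim1 cKO, beside 475 CPM for Stim1 HT and 685 CPM for Stim1 Ctrl. Stim1 cKO was the lowest library, and the controls also differed from each other. Mmp2 was 2.15-fold below Stim1 HT (95% counting interval 2.08 to 2.22) and 3.10-fold below Stim1 Ctrl (3.01 to 3.20). The adjusted p of Mmp2 was 0.0882 in edgeR, between 0.0874 and 0.116 over the edgeR scalings, and 0.00138 in DESeq2. Other filters were not part of such ranges. Mmp9, the gelatinase of osteoclasts and neutrophils, was at 89.5 CPM in Stim1 cKO, with Stim1 HT at 420 CPM and Stim1 Ctrl at 650 CPM. Both controls were far above Stim1 cKO and closer to each other than to it. Mmp9 was 4.69-fold below Stim1 HT (4.47 to 4.92) and 7.26-fold below Stim1 Ctrl (6.94 to 7.59). The adjusted p of Mmp9 was 0.0351 in edgeR, between 0.0265 and 0.0417 over the edgeR scalings, and 8.74e-10 in DESeq2. Counting intervals cover counting error only, not the spread between mice.

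Per kilobase of exon, Mmp9 was at 119 in Stim1 HT and 184 in Stim1 Ctrl, above Mmp14 in both, but at 25.3 in Stim1 cKO, where Mmp14 was at 91.3. Mmp14, a membrane-type MMP that activates the Mmp2 proenzyme, was at 544 CPM in Stim1 cKO, beside 637 CPM for Stim1 HT and 770 CPM for Stim1 Ctrl. Its share of the summed Mmp level per kilobase was 33.0% in Stim1 cKO, with Stim1 HT at 20.7% and Stim1 Ctrl at 18.4%. The share of Mmp9 was 9.14%, 23.0% and 26.1% in the same order. The leading Mmp gene per kilobase was thus Mmp14 in Stim1 cKO and Mmp2 in both controls.

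Collagenases cut fibrillar collagen. Mmp13, the collagenase of hypertrophic chondrocytes and osteoblasts, was at 144 CPM in Stim1 cKO, beside 257 CPM for Stim1 HT and 350 CPM for Stim1 Ctrl. It was lowest in Stim1 cKO and less than 2-fold below Stim1 HT. Mmp8, the collagenase stored in neutrophil granules, was at 0.991 CPM in Stim1 cKO, with Stim1 HT at 3.20 CPM and Stim1 Ctrl at 5.59 CPM, which rest on 24, 63 and 144 counts. Both controls were above Stim1 cKO. Mmp8 was 3.23-fold below Stim1 HT (1.99 to 5.40) and 5.64-fold below Stim1 Ctrl (3.65 to 9.10), with an adjusted p of 0.109 in edgeR.

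Mmp13, Mmp12, Mmp3, Mmp8 and Mmp27 form a group on chromosome 9, in this order and on the plus strand, from the start of Mmp13 at 7272514 to the end of Mmp27 at 7581885 (GENCODE M21, GRCm38). Directions differed within the group. Mmp3, a stromelysin that cuts proteoglycans and activates other MMPs, was at 5.45 CPM in Stim1 cKO, beside 1.12 CPM for Stim1 HT and 2.95 CPM for Stim1 Ctrl. Stim1 cKO was the highest library for Mmp3, and the controls were over 2-fold apart. Mmp12, the elastase of macrophages, had 66 counts in Stim1 cKO but 6 and 1 in the controls Stim1 HT and Stim1 Ctrl. Nearly all of its reads were thus in Stim1 cKO. The ratio of Mmp12 in Stim1 cKO was 8.95 to Stim1 HT (3.90 to 25.3) and 70.2 to Stim1 Ctrl (12.2 to 2813). Mmp12 passed the filter on low counts only through Stim1 cKO, so its adjusted p of 0.0656 in edgeR is no check of this difference. Mmp12 shares 157 exon bases with Mmp1b on the other strand, and it is not known whether reads were counted by strand, so its counts are uncertain.

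**Figure D2:**
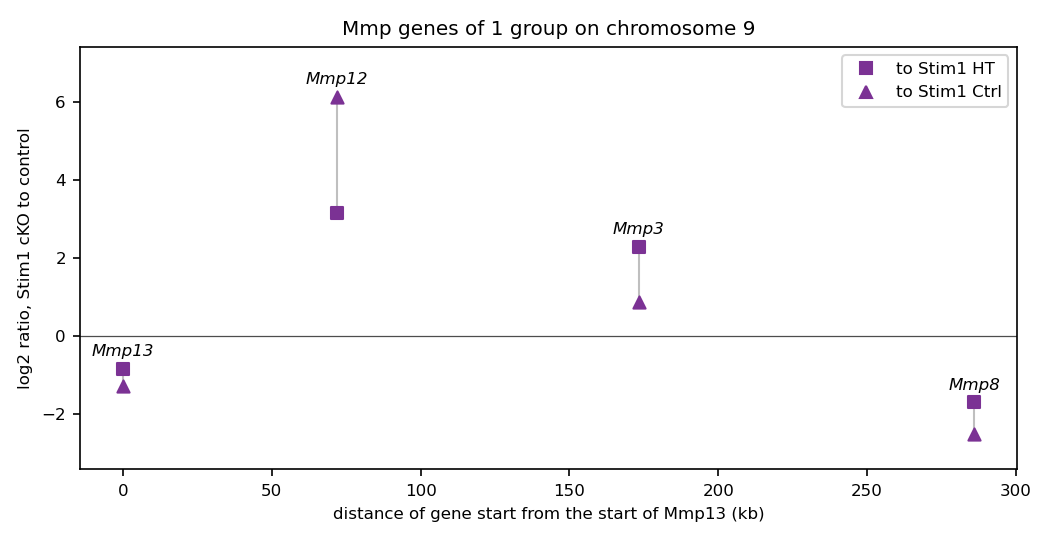
Log2 ratio of Stim1 cKO to each control for the 4 tested Mmp genes of the group on chromosome 9, against the distance of their start from that of Mmp13 in kilobases. Mmp13 and Mmp8, at the ends, lie below 0 and Mmp12 and Mmp3, between them, lie above 0 in both ratios.

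RefSeq promoter windows of 300 bases (GRCm38.p6) were available for 26 of the 40 members. They were searched on both strands for TGANTCA, the letters of an AP-1 site, and TATAAA, those of a TATA box. TGANTCA was found in 7.81% and TATAAA in 13.6% of all 32851 windows. Among the members, TGANTCA was found in Mmp13, Mmp12 and Mmp3 and TATAAA in these, Mmp8 and Adamts1. The windows of the neighbours on chromosome 9 are shown since genes that share these letters lay in opposite directions. The window of Mmp27, chr9:7571146-7571445, held neither motif and is not shown. Capitals mark TGANTCA and TATAAA, on either strand (the match in Mmp8 is on the reverse strand), and a match is a description, not a tested site.
Mmp13, plus strand, chr9:7272264-7272563: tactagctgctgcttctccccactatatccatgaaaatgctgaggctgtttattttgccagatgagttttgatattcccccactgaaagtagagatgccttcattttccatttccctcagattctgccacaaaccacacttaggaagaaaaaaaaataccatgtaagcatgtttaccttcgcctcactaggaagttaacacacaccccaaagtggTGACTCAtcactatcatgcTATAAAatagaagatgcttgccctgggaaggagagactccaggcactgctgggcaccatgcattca
Mmp12, plus strand, chr9:7347124-7347423: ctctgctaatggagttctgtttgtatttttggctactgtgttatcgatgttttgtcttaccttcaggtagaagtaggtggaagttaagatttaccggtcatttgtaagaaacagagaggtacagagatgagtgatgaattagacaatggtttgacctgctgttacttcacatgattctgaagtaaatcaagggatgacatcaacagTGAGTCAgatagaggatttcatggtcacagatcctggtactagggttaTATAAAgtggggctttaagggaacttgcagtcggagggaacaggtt
Mmp3, plus strand, chr9:7445572-7445871: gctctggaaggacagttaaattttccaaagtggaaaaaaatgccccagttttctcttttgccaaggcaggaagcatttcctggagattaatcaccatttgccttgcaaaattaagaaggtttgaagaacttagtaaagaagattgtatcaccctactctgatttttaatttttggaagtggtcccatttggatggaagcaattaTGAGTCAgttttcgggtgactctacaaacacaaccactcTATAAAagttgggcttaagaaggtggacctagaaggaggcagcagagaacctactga
Mmp8, plus strand, chr9:7558179-7558478: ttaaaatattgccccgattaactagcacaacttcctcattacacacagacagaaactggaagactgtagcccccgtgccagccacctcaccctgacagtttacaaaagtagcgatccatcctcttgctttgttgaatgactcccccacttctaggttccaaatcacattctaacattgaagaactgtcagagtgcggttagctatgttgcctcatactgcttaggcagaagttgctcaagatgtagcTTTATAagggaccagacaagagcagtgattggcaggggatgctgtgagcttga
Mmp12 had 2 windows, and the printed one, which lies inside the annotated gene, was chosen because it held more matches. The window at the other start of Mmp12, chr9:7344147-7344446, held neither motif. Which start was used in these libraries was not tested.

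Membrane-type MMPs are anchored at the cell surface, and 6 were listed. Mmp24, known from neural tissue, was at 8.38 CPM in Stim1 cKO, with Stim1 HT at 2.84 CPM and Stim1 Ctrl at 1.28 CPM. Stim1 cKO was the highest library, and the controls were over 2-fold apart. The ratio of Mmp24 in Stim1 cKO was 2.95 to Stim1 HT (2.18 to 4.04) and 6.54 to Stim1 Ctrl (4.51 to 9.76), with an adjusted p of 0.104 in edgeR. Mmp24 shares 637 exon bases with BC029722 on the other strand, which had 563, 602 and 587 counts, so the 203, 56 and 33 counts of Mmp24 are uncertain. Mmp25, a membrane-type MMP of neutrophils, had 11, 23 and 44 counts in Stim1 cKO, Stim1 HT and Stim1 Ctrl. It was lowest in Stim1 cKO, 2.57-fold below Stim1 HT (1.20 to 5.84) and 3.76-fold below Stim1 Ctrl (1.91 to 8.08), with an adjusted p of 0.184 in edgeR. The log2 fold changes of Mmp14, Mmp15, Mmp16 and Mmp17 lay between -0.55 and 0.54.

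Mmp23, an MMP whose proenzyme is anchored in the membrane, was at 20.5 CPM in Stim1 cKO, beside 45.5 CPM for Stim1 HT and 42.8 CPM for Stim1 Ctrl. The controls lay close together and both above Stim1 cKO. Mmp23 was 2.22-fold below Stim1 HT (1.99 to 2.48) and 2.09-fold below Stim1 Ctrl (1.88 to 2.33), with an adjusted p of 0.0549 in edgeR. Mmp11, Mmp19 and Mmp28 had log2 fold changes from -0.93 to 0.03, and none was over 2-fold outside both controls.

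**Figure D3:**
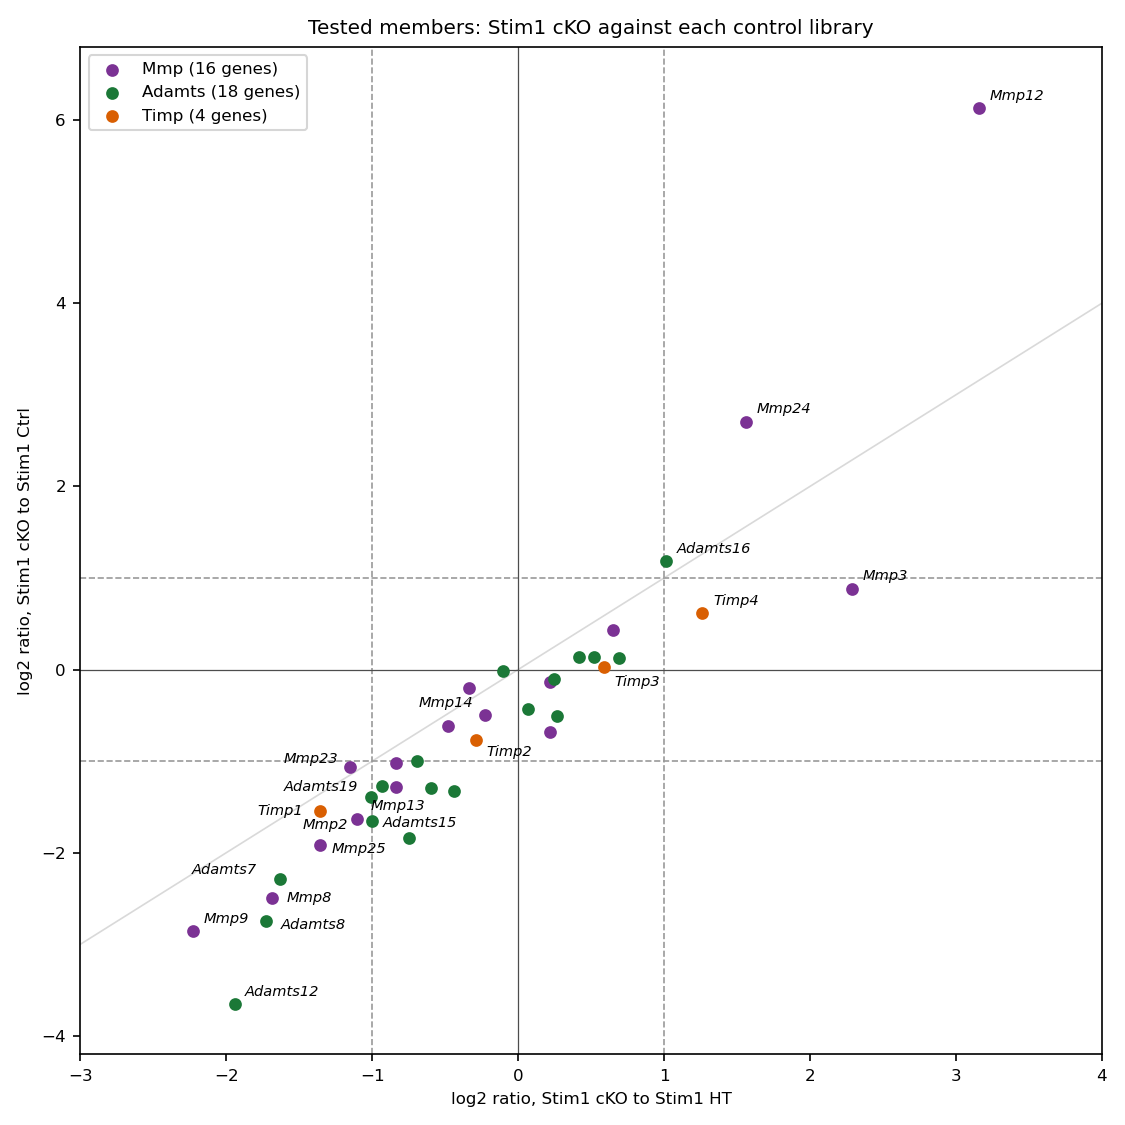
Log2 ratio of Stim1 cKO to Stim1 HT on the horizontal axis and to Stim1 Ctrl on the vertical axis for the 38 tested members, with dashed lines at 2-fold. The lower left corner holds the 11 members over 2-fold below both controls and the upper right corner the 3 above both, and the diagonal marks equal ratios.

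Among Adamts genes, 5 of 18 tested were over 2-fold below both controls, against 8.16% of all tested genes, and 1 was over 2-fold above both, against 19.1%. Adamts7 and Adamts12 cleave cartilage oligomeric matrix protein (COMP). Adamts12 was at 3.55 CPM in Stim1 cKO, with Stim1 HT at 13.7 CPM and Stim1 Ctrl at 44.8 CPM. The 3 libraries were well apart from each other. Adamts12 was 3.84-fold below Stim1 HT (3.00 to 4.96) and 12.6-fold below Stim1 Ctrl (10.1 to 15.9). The adjusted p of Adamts12 was 0.0802 in edgeR, between 0.0698 and 0.105 over the edgeR scalings, and 0.000383 in DESeq2. Adamts7 was at 4.71 CPM in Stim1 cKO, beside 14.6 CPM for Stim1 HT and 22.9 CPM for Stim1 Ctrl. It was likewise lowest in Stim1 cKO, 3.10-fold below Stim1 HT (2.49 to 3.89) and 4.87-fold below Stim1 Ctrl (3.98 to 6.003). The adjusted p of Adamts7 was 0.0595 in edgeR, between 0.0559 and 0.0811 over the edgeR scalings, and 0.00458 in DESeq2. Adamts7 shares 122 exon bases with Tbc1d2b on the other strand, which had 1069, 1284 and 2241 counts, so the 114, 288 and 590 counts of Adamts7 are uncertain. Comp, their substrate, had 13.4 CPM in Stim1 cKO, which lay between the 5.73 CPM of Stim1 HT and the 20.01 CPM of Stim1 Ctrl.

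Of 7 proteoglycan-cleaving members, 5 were below both controls by any amount, against 42.1% of all tested genes. Adamts8 was at 4.38 CPM in Stim1 cKO, with Stim1 HT at 14.5 CPM and Stim1 Ctrl at 29.4 CPM. Stim1 cKO was the lowest library and the controls were over 2-fold apart. Adamts8 was 3.32-fold below Stim1 HT (2.64 to 4.18) and 6.72-fold below Stim1 Ctrl (5.48 to 8.31). The adjusted p of Adamts8 was 0.0649 in edgeR, between 0.0578 and 0.0861 over the edgeR scalings, and 0.00188 in DESeq2. Adamts8 shares 489 exon bases with the antisense gene Gm29724, so its counts are uncertain. Adamts15 was at 12.02 CPM in Stim1 cKO, beside 24.1 CPM for Stim1 HT and 37.8 CPM for Stim1 Ctrl. It was lowest in Stim1 cKO, with a ratio of 0.4996 to Stim1 HT (0.430 to 0.579), which is at the 2-fold limit, and an adjusted p of 0.0841 in edgeR. Adamts1, a versican-cleaving protease, was at 30.5 CPM in Stim1 cKO, with Stim1 HT at 41.3 CPM and Stim1 Ctrl at 76.7 CPM. It was lowest in Stim1 cKO but less than 2-fold below Stim1 HT, with an adjusted p of 0.199 in edgeR. Adamts5, the main aggrecanase of mouse cartilage, was at 78.3 CPM in Stim1 cKO, beside 48.6 CPM for Stim1 HT and 71.7 CPM for Stim1 Ctrl, and was the only member of the 7 that was highest in Stim1 cKO. Adamts9 and Adamts20 were below both controls but less than 2-fold below Stim1 HT, and Adamts4 lay between them.

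Procollagen N-propeptidases trim fibrillar procollagens. Adamts2 was at 152 CPM in Stim1 cKO, with Stim1 HT at 145 CPM and Stim1 Ctrl at 206 CPM. Stim1 cKO lay between the controls, and the sign of the Adamts2 fold change reversed with scaling by library size only and without Stim1 Ctrl. Its adjusted p was 0.705 in edgeR. Adamts2 was the most abundant Adamts gene per kilobase, at 16.3 in Stim1 cKO, beside 15.5 for Stim1 HT and 22.03 for Stim1 Ctrl. Adamts3 and Adamts14 had log2 fold changes of 0.27 and -0.99. The fibrillin-associated Adamts6 and Adamts10 had log2 fold changes of 0.31 and 0.06, and the sign of Adamts10 reversed without Stim1 HT. Adamts16 was at 6.98 CPM in Stim1 cKO, with Stim1 HT at 3.45 CPM and Stim1 Ctrl at 3.07 CPM. It was highest in Stim1 cKO, with a ratio of 2.02 to Stim1 HT (1.52 to 2.72) and 2.27 to Stim1 Ctrl (1.73 to 3.01), and an adjusted p of 0.191 in edgeR. Adamts19 was at 2.48 CPM in Stim1 cKO, beside 4.97 CPM for Stim1 HT and 6.53 CPM for Stim1 Ctrl. It was lowest in Stim1 cKO, and its ratio of 0.498 to Stim1 HT (0.355 to 0.694) was at the 2-fold limit, with an adjusted p of 0.198 in edgeR. Adamts17 was below both controls, with ratios of 0.523 to Stim1 HT and 0.415 to Stim1 Ctrl. Adamts18 was nearly alike in the 3 libraries, with ratios of 0.930 and 0.990, and its sign reversed with library size only, with upper quartile scaling and with a mean of at least 50 counts.

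Timp1, an inducible inhibitor, was at 20.7 CPM in Stim1 cKO, with Stim1 HT at 53.2 CPM and Stim1 Ctrl at 60.5 CPM. The controls lay close together and both above Stim1 cKO. Timp1 was 2.57-fold below Stim1 HT (2.30 to 2.86) and 2.92-fold below Stim1 Ctrl (2.64 to 3.23). The adjusted p of Timp1 was 0.0370 in edgeR, between 0.0306 and 0.0480 over the edgeR scalings, and 0.00147 in DESeq2. Timp2, which takes part in the activation of the Mmp2 proenzyme by Mmp14, was at 410.2 CPM in Stim1 cKO, beside 501 CPM for Stim1 HT and 697 CPM for Stim1 Ctrl. Its ratio to Stim1 HT was 0.819 and that to Stim1 Ctrl 0.588, so it was lowest in Stim1 cKO by less than 2-fold. Timp3, which binds to the matrix, was at 367 CPM in Stim1 cKO, with Stim1 HT at 245 CPM and Stim1 Ctrl at 360 CPM. Stim1 cKO and Stim1 Ctrl were nearly alike for Timp3, and Stim1 HT was the library apart. Timp4, known from heart and brain, was at 7.43 CPM in Stim1 cKO, beside 3.10 CPM for Stim1 HT and 4.86 CPM for Stim1 Ctrl, and was highest in Stim1 cKO. The adjusted p in edgeR was 0.361 for Timp2, 0.622 for Timp3 and 0.292 for Timp4.

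Timp1, Timp3 and Timp4 lie inside the synapsin genes Syn1, Syn3 and Syn2, on the opposite strand. Timp3 shares 1733 and Timp4 90 exon bases with its host, and Timp1 shares 0. Synapsins, which coat synaptic vesicles, were higher in Stim1 cKO. Syn1 was at 40.2 CPM in Stim1 cKO, with Stim1 HT at 7.26 CPM and Stim1 Ctrl at 6.14 CPM. Syn2 was at 48.4, 11.5 and 7.07 CPM in the same order. All 3 synapsins were over 2-fold above both controls, against 19.1% of all tested genes. DESeq2 called Syn1 and Syn2 higher, against 6.42% of the genes it gave an adjusted p. edgeR called 0, with 3 higher at an unadjusted p under 0.05, against 18.5% of all tested genes. The direction of Timp1 was thus opposite to that of Syn1. Timp4 had 180, 61 and 125 counts beside 1172, 226 and 182 counts of Syn2, so the counts of Timp4 are uncertain.

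Summed per kilobase of exon, Mmp genes were at 277 in Stim1 cKO, beside 515 for Stim1 HT and 704 for Stim1 Ctrl. Timp genes were at 175 in Stim1 cKO, with Stim1 HT at 219 and Stim1 Ctrl at 292. Both sums per kilobase were lowest in Stim1 cKO, but in CPM the Timp sums were 806, 802 and 1123, so that Stim1 cKO was not the lowest on that scale. Per kilobase, the ratio of the Mmp to the Timp sum was 1.58 in Stim1 cKO, beside 2.35 for Stim1 HT and 2.41 for Stim1 Ctrl. Timp2 made up 60.2%, 58.7% and 61.3% of the Timp sum in this order. The share of Timp1 was 13.3%, 27.4% and 23.3%, and that of Timp3 25.8%, 13.7% and 15.1%. Timp2 therefore held a nearly constant share, while Timp1 was ahead of Timp3 in both controls and behind it in Stim1 cKO. Adamts genes summed to 59.5 in Stim1 cKO, with Stim1 HT at 66.7 and Stim1 Ctrl at 103.

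**Figure D4:**
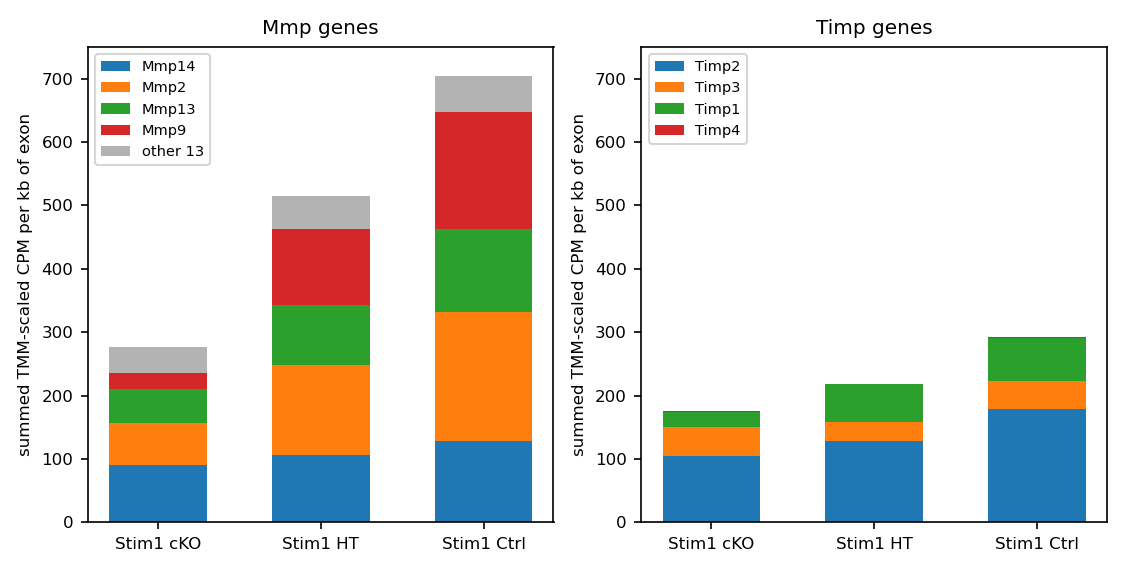
Summed level of the 17 Mmp genes and of the 4 Timp genes in CPM per kilobase of exon, as bars from 0 for each library, with colours for the leading genes. The Mmp sum is 277 in Stim1 cKO and 704 in Stim1 Ctrl, and the Timp sum 175 and 292.

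By known cell source, the members of neutrophil granules, Mmp8, Mmp9 and Mmp25, were all over 2-fold below both controls, with a median log2 fold change of -2.15. Over all tested genes, 8.16% were over 2-fold below both controls. All 8 neutrophil markers were listed, and 6 of them were over 2-fold below both controls. Their sum was 1493 CPM in Stim1 cKO, beside 576 CPM for Stim1 HT and 314 CPM for Stim1 Ctrl, with Ltf as the largest part in each library. Without Ltf, which glands also secrete, the sums were 52.1, 218 and 202 CPM. Neutrophil markers other than Ltf were thus lower in Stim1 cKO, as were the granule MMPs, and their part in the levels of these MMPs was not tested.

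Osteoclasts are known for Mmp9 and Mmp14. All 7 osteoclast markers were listed and below both controls, against 42.1% of all tested genes. Of these, 6 were over 2-fold below both, against 8.16%. The sum of the 7 was 290.4 CPM in Stim1 cKO, with Stim1 HT at 1225 CPM and Stim1 Ctrl at 1244 CPM. Ctsk was the largest part in each library. Osteoclast markers and Mmp9 were thus low in the same library, while Mmp14, which many cells make, differed less. The part of osteoclast content in Mmp9 was not tested, and Mmp9 cannot be divided between osteoclasts and neutrophils here.

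Mmp12 is known from macrophages, and all 7 macrophage markers were listed. Their sum was 140.2 CPM in Stim1 cKO, beside 304 CPM for Stim1 HT and 339 CPM for Stim1 Ctrl, with Csf1r as the largest part in each library. All 7 were below both controls, against 42.1% of all tested genes. Mmp12, which passed the filter on low counts only through Stim1 cKO, was highest in that library. The part of macrophages in the level of Mmp12 was not tested.

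The 10 members known from fibroblasts and other mesenchymal cells had a median log2 fold change of -0.46. Of these, Mmp2, Mmp23, Adamts12 and Timp1 were over 2-fold below both controls, against 8.16% of all tested genes. Mmp3 and Adamts5 were highest in Stim1 cKO. All 8 fibroblast markers were listed and below both controls, against 42.1% of all tested genes. Of these, 3 were over 2-fold below both, against 8.16%. The sum of the 8 was 35014 CPM in Stim1 cKO, with Stim1 HT at 48286 CPM and Stim1 Ctrl at 75242 CPM. Col1a1 was the largest part in each library. The mesenchymal members thus ran from far below to above the controls, while the fibroblast markers were lowest in Stim1 cKO, and their part in the levels was not tested.

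Mmp13 is known from hypertrophic chondrocytes and osteoblasts. All 8 chondrocyte markers were listed, with a sum of 108 CPM in Stim1 cKO, beside 519 CPM for Stim1 HT and 790.3 CPM for Stim1 Ctrl. Col2a1 was the largest part in both controls and Acan in Stim1 cKO. All 8 osteoblast and odontoblast markers were listed as well, with sums of 2626, 2847 and 2956 CPM. Ibsp was the largest part in both controls and Dspp in Stim1 cKO. Without Col2a1 the chondrocyte sums were 85.0, 167 and 288 CPM, and 4 of the 8 chondrocyte markers were below both controls, 1 above both and 3 between them. Without Ibsp the bone and dentin sums were 1935, 1768 and 1581 CPM, and of these 8 markers 4 were below both controls, 2 above both and 2 between them. Neither list thus had 1 direction, and the part of either cell type in Mmp13 was not tested.

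Of the 3 members listed under neural tissue, Mmp24 and Mmp16 were above both controls and Mmp17 lay between them. Timp4, known from heart and brain, was not in this list and was also highest in Stim1 cKO. All 7 neuron markers were listed, with a sum of 870 CPM in Stim1 cKO, with Stim1 HT at 236 CPM and Stim1 Ctrl at 199 CPM. Stmn2 was the largest part in Stim1 cKO, Tubb3 in Stim1 HT and Nefm in Stim1 Ctrl. Of the 7 markers, 5 were over 2-fold above both controls, against 19.1% of all tested genes. Nefm was below both and Nefl lay between them. The part of neurons in Mmp24 was not tested. Timp3 is known from the retinal pigment epithelium, of which 4 of 5 markers were listed, with Rpe65 not listed. Their sum was 19.6 CPM in Stim1 cKO, beside 4.87 CPM for Stim1 HT and 4.78 CPM for Stim1 Ctrl. Rlbp1 was the largest part in Stim1 cKO and Best1 in both controls, and without Rlbp1 the sums were 6.07, 3.65 and 3.81 CPM. The part of these cells in the level of Timp3 was not tested.

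**Figure D5:**
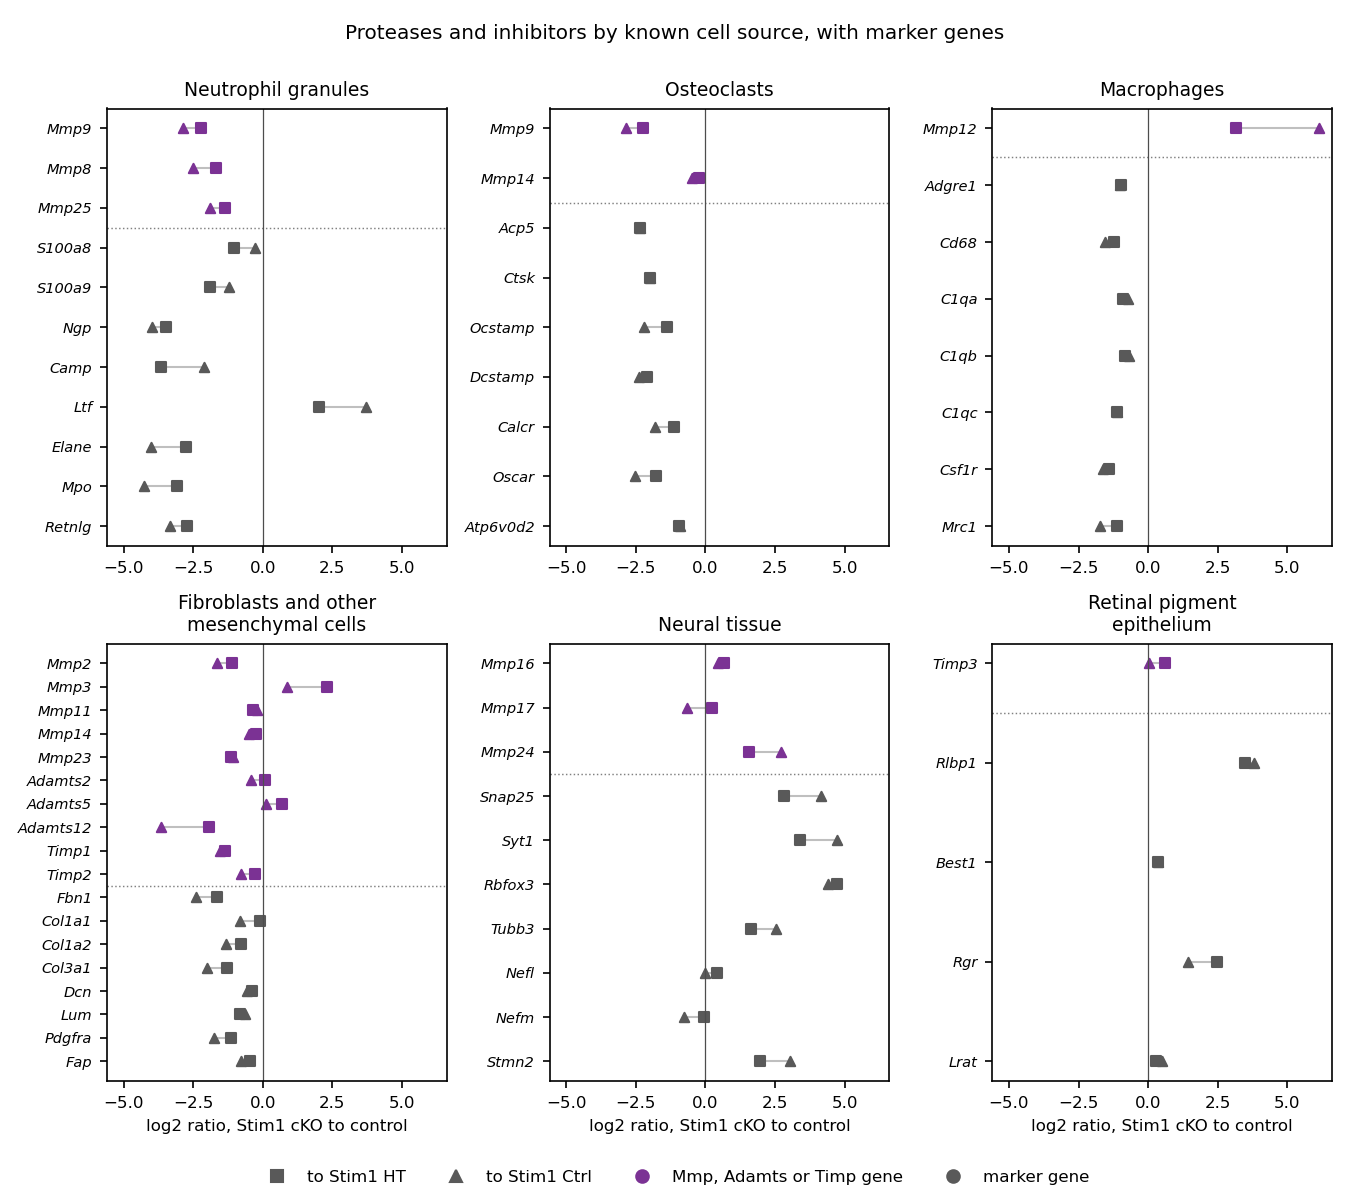
Log2 ratios of Stim1 cKO to Stim1 HT (squares) and to Stim1 Ctrl (triangles) for members in purple and marker genes in grey, by known cell source. Mmp8, Mmp9 and Mmp25 lie left of 0 with 7 of 8 neutrophil markers, and Mmp12 lies right of 0 while all 7 macrophage markers lie left of it.

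Partners of these enzymes were examined as well. Over all genes, DESeq2 called 5.1% lower and 6.42% higher, and at an unadjusted p under 0.05 edgeR gave 13.4% lower and 18.5% higher. Of 8 tested activators and inducers, DESeq2 called 1 lower and edgeR called 0, with 2 lower at an unadjusted p under 0.05. The called gene was Pcsk6, a proprotein convertase, at 22.8 CPM in Stim1 cKO, with Stim1 HT at 93.8 CPM and Stim1 Ctrl at 130.3 CPM. Of 8 other inhibitors and clearance genes, DESeq2 called 1 higher and edgeR 0, with 1 lower and 1 higher at an unadjusted p under 0.05. The called gene was Spock1, a matrix proteoglycan, at 57.2 CPM in Stim1 cKO, beside 18.7 CPM for Stim1 HT and 7.23 CPM for Stim1 Ctrl. Pcsk6 was thus low and Spock1 high in Stim1 cKO against both controls. Of 8 ADAM sheddases, DESeq2 called Adam8 higher and Adam12 lower and edgeR called 0, with 3 lower and 1 higher at an unadjusted p under 0.05. Adam8 was at 51.7, 15.7 and 5.05 CPM in Stim1 cKO, Stim1 HT and Stim1 Ctrl. Adam12 was at 19.9, 46.9 and 70.3 CPM in the same order. Of 6 ADAMTS-like genes, DESeq2 and edgeR called 0, with 2 lower at an unadjusted p under 0.05 in edgeR, and Adamtsl3 was over 2-fold below both controls.

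Among 8 proteoglycan and glycoprotein substrates, DESeq2 called Vcan and Fbn1 lower and Ncan higher, and Bcan was also over 2-fold above both controls. edgeR called 0 of them, with 2 lower and 2 higher at an unadjusted p under 0.05. Versican (Vcan), a substrate of several proteoglycan-cleaving members, was at 63.4 CPM in Stim1 cKO, with Stim1 HT at 218 CPM and Stim1 Ctrl at 304 CPM. Neurocan (Ncan), a proteoglycan of the brain, was at 61.9 CPM in Stim1 cKO, beside 4.47 CPM for Stim1 HT and 1.67 CPM for Stim1 Ctrl. Versican was thus low and neurocan high in Stim1 cKO. Of 8 collagen and elastin substrates, all 8 were below both controls, against 42.1% of all tested genes, with a median log2 fold change of -2.48. DESeq2 called Col2a1, Col3a1, Col4a1, Col4a2, Col5a1 and Eln lower. edgeR called 0 of the 8, with 6 lower at an unadjusted p under 0.05. Col4a1, a basement membrane collagen that gelatinases cut, was at 172 CPM in Stim1 cKO, with Stim1 HT at 902 CPM and Stim1 Ctrl at 1407 CPM.

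The controls also differed. Over 2-fold apart between Stim1 HT and Stim1 Ctrl were 6 of 38 members, which is 15.8% against 12.3% of all tested genes. These were Mmp3, Mmp12, Mmp24, Adamts8, Adamts12 and Adamts20. This count was 2 on the scale of log2(CPM + 1). As a set, the members were lower in Stim1 HT than in Stim1 Ctrl. With Stim1 HT divided by Stim1 Ctrl, their median was -0.46 in log2, against 0.005 over all tested genes. By family this median was -0.31 for Mmp, -0.53 for Adamts and -0.52 for Timp genes. The shift between the controls was thus near the -0.55 of Stim1 cKO against both, and for Timp genes larger than the -0.13 there. With 1 library each, genotype and mouse cannot be told apart in this comparison.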

How the data were processed

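The deposited values are raw counts, not normalized, which the authors obtained after trimming and STAR alignment of paired-end reads. The genome build, gene annotation, counting tool and strand setting are not given in the sources used here. The paper names a directional NEBNext kit and the labels a SMARTER kit.

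Stim1 cKO was tested against the grouped controls with edgeR 4.0.16 (R 4.3.3), using TMM factors, filterByExpr, the quasi-likelihood test and Benjamini-Hochberg adjustment over 18702 genes. The common dispersion was 0.106 and the residual degrees of freedom 1, so the only spread between libraries that the test can use is that of the 2 controls, pooled over genes. DESeq2 1.42.0, other scalings, filters and thresholds and leaving out either control were alternatives. Ratios of single libraries used TMM-scaled CPM, with counts under 3 set to 3 where members were counted past a fold, and 95% Clopper-Pearson counting intervals. Exon lengths, positions and overlaps came from GENCODE M21 (GRCm38), in which all 40 members were found. Python 3.11.15 was used.

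Full values were given for members called by either tool or over 2-fold outside both controls, and for the 2 Mmp, 2 Adamts and 4 Timp genes with the highest mean level per exon length. Mmp3, Mmp13, Mmp14, Adamts5, Comp and the promoters printed are outside this rule, chosen with their values in view. The members and the family, cell source, partner and marker lists were chosen with earlier results of these data known. Acan, Comp, Vwf, Fbn1, Col1a1, Col1a2, Col2a1 and Col3a1 stand in both a partner and a marker list. The result of 1 marker list is not reported here.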

Additional observations from a re-analysis of the deposited data

How the results depend on the processing

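The count of members called by edgeR was 0 under each other scaling and filter tried and without a fold minimum, 2 at an adjusted p under 0.05 (Mmp9 and Timp1) and 6 with DESeq2. Members over 2-fold below both controls numbered 11, but 7 with scaling by library size only, 7 with a mean of at least 50 counts, where Mmp25 is not tested and the scaling factors differ, and 17 at a fold of 1.5. They numbered from 11 to 18 when 1 control was left out, 18 without Stim1 HT. Members over 2-fold above both controls numbered 3, but 5 at a fold of 1.5 and from 3 to 5 when 1 control was left out, 5 without Stim1 Ctrl. Members over 2-fold apart between the controls numbered 6, but 2 on log2(CPM + 1) and 15 at a fold of 1.5. The cause was not tested.

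The median log2 fold change of the members was negative under all alternatives, from -0.73 without Stim1 HT to -0.29 with library size only. Over all genes, the median shifted by 0.26 with library size only and by 0.13 with upper quartile scaling. Relative to it, the members' median stayed negative. Of 19 members named in full, 18 kept the sign of their fold change. Adamts2 reversed, from -0.20 to 0.063 with library size only, and ranged from -0.44 to 0.071 when 1 control was left out, 0.071 without Stim1 Ctrl. The cause was not tested. Depth limits Mmp12, Mmp25 and Mmp8 most among these 19, with 1 to 144 counts.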

Other observations

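Other cell types, under which no member was listed here, were also examined by their markers. All 7 endothelial markers were listed and below both controls, against 42.1% of all tested genes. The sum was 248 CPM in Stim1 cKO, beside 525 CPM for Stim1 HT and 583 CPM for Stim1 Ctrl. Pecam1 was the largest part of the sum in Stim1 cKO and Stim1 HT and Cdh5 in Stim1 Ctrl. All 5 smooth muscle markers were listed, with sums of 481, 582 and 911 CPM and Acta2 as the largest part in each library. All 7 skeletal muscle markers were listed, with sums of 3914, 14360 and 18412 CPM. Acta1 was the largest part in both controls and Myh1 in Stim1 cKO. All 4 adipocyte markers were listed, with sums of 17.1, 82.2 and 37.8 CPM. Cfd was the largest part in Stim1 cKO, Adipoq in Stim1 HT and Plin1 in Stim1 Ctrl. Of 7 gland markers 6 were listed, with Lacrt not listed and Smr3a at 3 or fewer counts in both controls. Their sums were 2486, 259 and 30.4 CPM, and without Muc5b 89.8, 23.7 and 21.2 CPM. Muc5b was the largest part in Stim1 cKO and Stim1 HT and Bhlha15 in Stim1 Ctrl. By their sums, vascular, muscle and fat markers were lowest and gland markers highest in Stim1 cKO. Single genes went otherwise, with Myh4 above both controls, Scgb2b24 below both, and Cfd, Myh11, Tagln and Cnn1 between them.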
